A study of Homo sapiens with 13 samples.

Results

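Oxidative phosphorylation subunits are the nuclear-encoded proteins that build the 4 respiratory complexes and the ATP synthase of the inner mitochondrial membrane. They were taken from the expression table as the probe sets that the platform annotation gives to a single symbol starting with NDUFA, NDUFB, NDUFC, NDUFS, NDUFV, SDHA to SDHD, UQCR, COX4 to COX8, ATP5F, ATP5M or ATP5P. Pseudogenes, antisense and divergent transcripts (3 symbols) and the NDUFAF assembly factors were left out. This gave 76 of the 18568 genes of the table, measured by 146 probe sets, and each gene took its probe set with the highest mean. Complex I had 33 of them, complex II 3, complex III 6, complex IV 17 and complex V, the ATP synthase, 17.

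RNA of 13 established human acute lymphoblastic leukemia (ALL) cell lines was hybridized to Affymetrix HG-U133 Plus 2.0 arrays, 1 per line. Of these, 7 lines were T-ALL (Jurkat, Molt4, CCRF-CEM, P12-ICHIKAWA, TALL-1, HPB-ALL and ALL-SIL), and 6 were B-cell precursor ALL, BCP-ALL (697, Nalm6, REH, RS4,11, Nalm16 and Nalm30). All were untreated and kept for 30 hours in RPMI-1640 with fetal bovine serum, so neither group carries a drug or an engineered change. Each line was treated as 1 leukemia grown in culture. This includes P12-ICHIKAWA and TALL-1, the closest pair of arrays (r = 0.993), and whether they are independent was not tested. With 1 array per line, the spread and the p-values are those between lines, and a repeat culture of a line was not analysed here.

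Values are log2 signals to which 16 was added before the log, so 4 is the lowest possible value, and folds of weak genes are understated. The labelled lineages were visible in their markers: CD3D, a chain of the T-cell receptor complex, lay between 11.56 and 12.25 in T-ALL lines and at or under 4.38 in BCP-ALL lines, and PAX5, a B-lineage transcription factor, between 4.02 and 4.59 in T-ALL lines and between 10.52 and 11.27 in BCP-ALL lines. Of the measured T-lineage markers 10 of 12 and of the B-lineage markers 7 of 9 did not overlap between the lineages. Nalm16 and Nalm30 stood apart on the whole array. Their upper quartiles over all probe sets were 6.54 and 6.89, against 7.04 to 7.33 in the other 11 lines, and their correlation with any of those lines was 0.770 to 0.879, against 0.870 or more among those lines. They came from a source laboratory of their own. Source laboratory nearly followed lineage in the other lines too. By the paper's methods, only the source in Campinas gave lines of both lineages, with Nalm6 as its only BCP-ALL line. Lineage differences are therefore largely differences between source laboratories as well, and the part of the source in them was not tested on its own. P12-ICHIKAWA and TALL-1 correlated at r = 0.993, above every other pair of lines. Lineage differences that Nalm16 and Nalm30 moved by over 1.5 times are given without them too, except that of COX5A.

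Electrons from NADH enter the respiratory chain at complex I (NADH dehydrogenase) and those from succinate at complex II (succinate dehydrogenase). Complex III (cytochrome bc1 complex) passes them to cytochrome c, and complex IV (cytochrome c oxidase) to oxygen. Complexes I, III and IV pump protons as they do so, and complex V uses the gradient to make ATP. Apart from complex II, the complexes also hold subunits encoded by mitochondrial DNA, so their assembly depends on both genomes. The mtDNA-encoded subunits, and NDUFA4, NDUFC2, NDUFS5, NDUFS8, SDHB, UQCRFS1 and UQCRH among the nuclear ones, were not analysed here.

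No subunit passed the test between the lineages. Most were strongly expressed, 56 with a mean of at least 10. Of the 76 genes, 72 were above the median of their array in at least 3 lines and were tested, and 0 of the 72 passed between T-ALL and BCP-ALL (limma with Benjamini-Hochberg adjustment over all 12560 genes tested, smallest adjusted p = 0.0941), whereas 7.63% of all genes tested did (3.96% higher and 3.67% lower in T-ALL). At an unadjusted p under 0.05, 9 subunits (12.5%) passed, against 25.3% of all genes tested, 7 of them higher in T-ALL (15.1% of all genes) and 2 lower (10.1%). The median difference (T-ALL minus BCP-ALL) was 0.032 log2 units over the 72 subunits and 0.034 over all genes tested, and 39 subunits had a positive and 33 a negative difference. The largest values were 0.97 (NDUFA5) and -0.57 (NDUFV3). With the chosen probe sets, the lineages did not overlap for 1 subunit, UQCRC2, against 3.69% of all genes tested. A missed threshold does not show equal levels, since the 95% intervals of the differences reached up to 2.18 (NDUFA5).

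**Figure D1:**
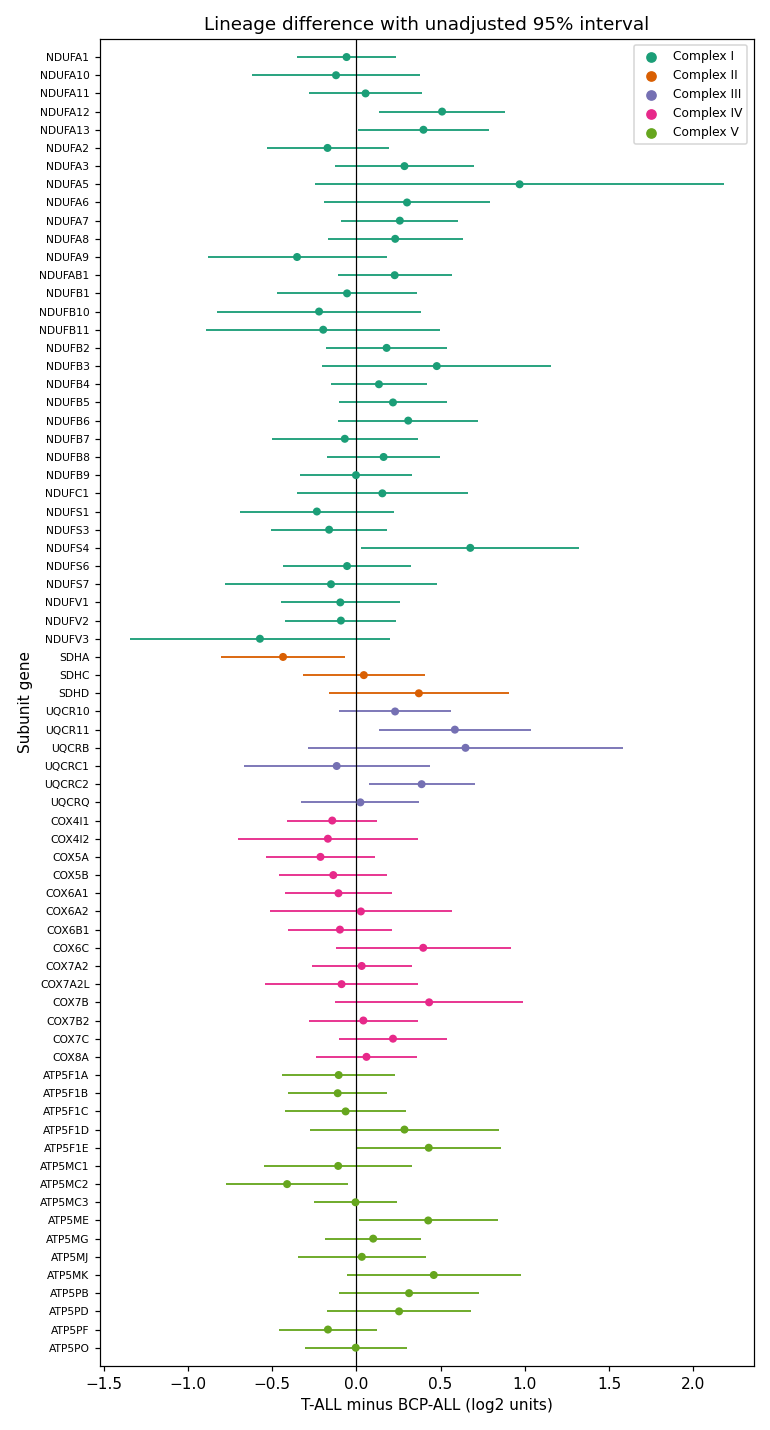
Difference between T-ALL and BCP-ALL (T-ALL minus BCP-ALL, log2 units) for the 72 tested subunits, coloured by complex; points are the differences of the means over 7 T-ALL and 6 BCP-ALL lines and bars their unadjusted 95% intervals from limma. The points run from -0.57 to 0.97, and the widest interval is that of NDUFA5.

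A single line led the subunits. Molt4, a T-ALL line, was the highest of the 13 lines for 28 of the 72 subunits (38.9%), while it was the highest for 8.55% of all genes tested. Among the 56 subunits with a mean of at least 10, it was the highest for 41.1%, against 11.9% of the 827 tested genes at that level. By complex, these were 14 of 33 subunits of complex I, 2 of 3 of complex II, 4 of 6 of complex III, 4 of 14 of complex IV and 4 of 16 of complex V, and in complexes IV and V Nalm16 was the highest for as many. With arrays centred on their medians or quantile normalized, Molt4 was the highest for 25 and 29 subunits. Nalm16 was the highest for 13 subunits with the deposited values, and for 21 and 16 with these normalizations. Molt4 lay above the 13-line mean for 64 of the 72 subunits (88.9%), against 54.1% of all genes tested. The next lines by this count were REH (55 subunits) and CCRF-CEM (52), and the lowest were HPB-ALL with 22, Nalm6 with 22 and 697 with 20.

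**Figure D2:**
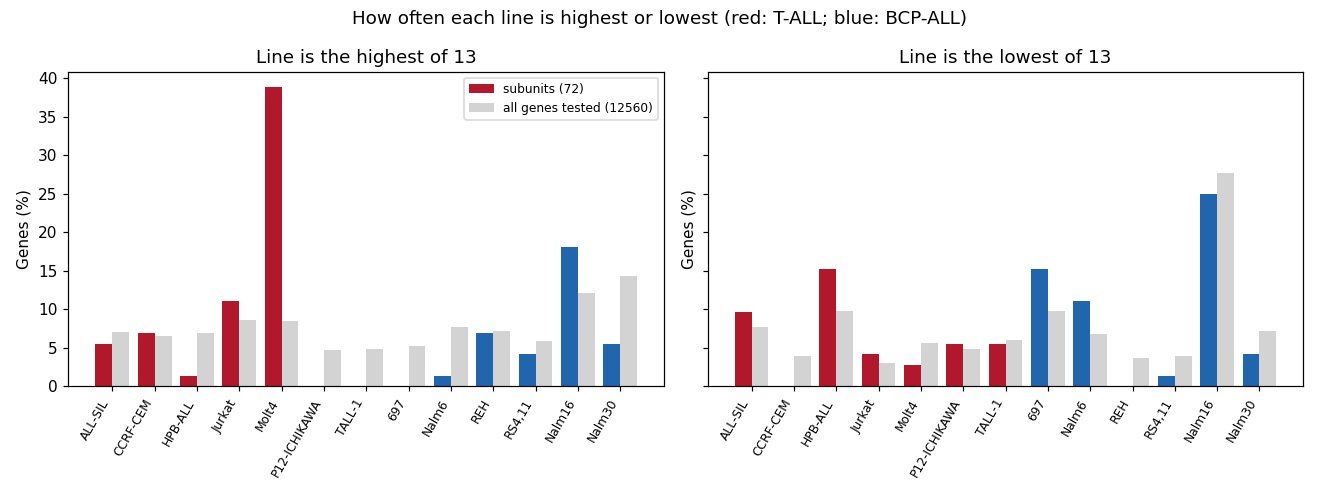
Share of genes (%) for which each line was the highest (left panel) or the lowest (right panel) of the 13 lines, for the 72 subunits (red bars T-ALL, blue bars BCP-ALL) and for the 12560 genes tested (grey bars). Molt4 is the highest line for 38.9% of the subunits and 8.55% of all genes; for Nalm16 as the lowest line the shares are 25.0% and 27.7%.

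The complexes were also followed by their mean deviation, which is the mean over its tested subunits of the log2 value minus the gene's own mean over the 13 lines. In Molt4 it was 0.41 for complex I, 0.30 for complex II, 0.53 for complex III, 0.13 for complex IV and 0.22 for complex V, where the median over all genes tested was 0.046. CCRF-CEM was above 0 for all 5 complexes, most for complex III (0.24). HPB-ALL was below 0 for all 5 complexes, between -0.12 and -0.18, and so was 697, between -0.07 and -0.23, with all-gene medians of -0.015 and -0.043. P12-ICHIKAWA and TALL-1 lay between -0.10 and 0.10 for every complex.

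Complex III differed most between the lineages in this measure. It averaged 0.13 ± 0.21 in T-ALL lines and -0.16 ± 0.22 in BCP-ALL lines (SD, n = 7 and 6), and the groups overlapped, since HPB-ALL lay at -0.14 and RS4,11 at 0.07. The difference was 0.29, and 0.18 without Nalm16 and Nalm30. The lowest BCP-ALL value, -0.56 in Nalm16, stood beside an all-gene median of -0.18 in that line. The other complexes had lineage means within 0.09 of each other. Complex II was at 0.00 ± 0.15 in T-ALL lines and 0.00 ± 0.15 in BCP-ALL lines, and complex IV at 0.01 ± 0.11 and -0.01 ± 0.06 in T-ALL and BCP-ALL lines. The range of complex IV over all 13 lines, from -0.18 in HPB-ALL to 0.13 in Molt4, was narrower than that of the other complexes.

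**Figure D3:**
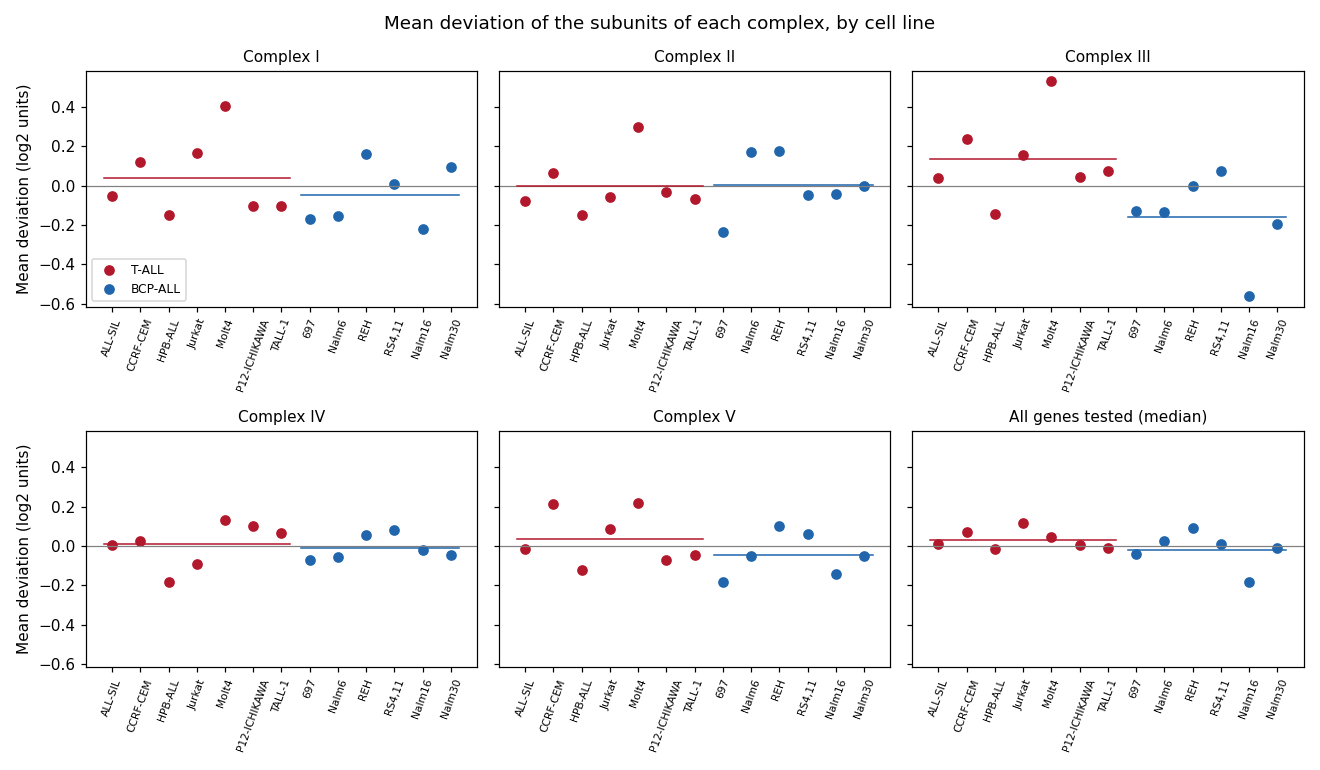
Mean deviation (log2 units) of the tested subunits of complexes I to V in each cell line, with the median over all genes tested in the last panel; red points are the 7 T-ALL and blue points the 6 BCP-ALL lines, horizontal lines the group means. Molt4 is the highest T-ALL line in every complex, and Nalm16 is the lowest line for complex III at -0.56.

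Nalm16 and Nalm30 were the 2 lowest lines for 13 subunits (18.1%) and the 2 highest for 9 (12.5%). These shares were close to those of all genes tested, 20.5% and 12.04%. The first principal component held 47.1% of the variance of the 72 subunits, with weights of -0.78 for Nalm16 and -0.48 for Nalm30 and positive weights of at most 0.23 for the others. The deviations were not scaled per gene, so subunits with a large SD, such as NDUFA5 (1.17) and UQCRB (0.87), weigh most in it. The same share over all genes is not given here. Low in both lines were subunits of every complex (NDUFA5, NDUFAB1, NDUFB3, NDUFB5, NDUFB6, SDHD, UQCR10, UQCRB, COX6C, COX7B, ATP5F1E, ATP5MK and ATP5PB), and high in both were NDUFB11, NDUFS3, NDUFV3, SDHA, UQCRC1, COX5A, COX6A1, COX6B1 and ATP5PO. The part of the arrays' overall difference in these values was not tested.

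**Figure D4:**
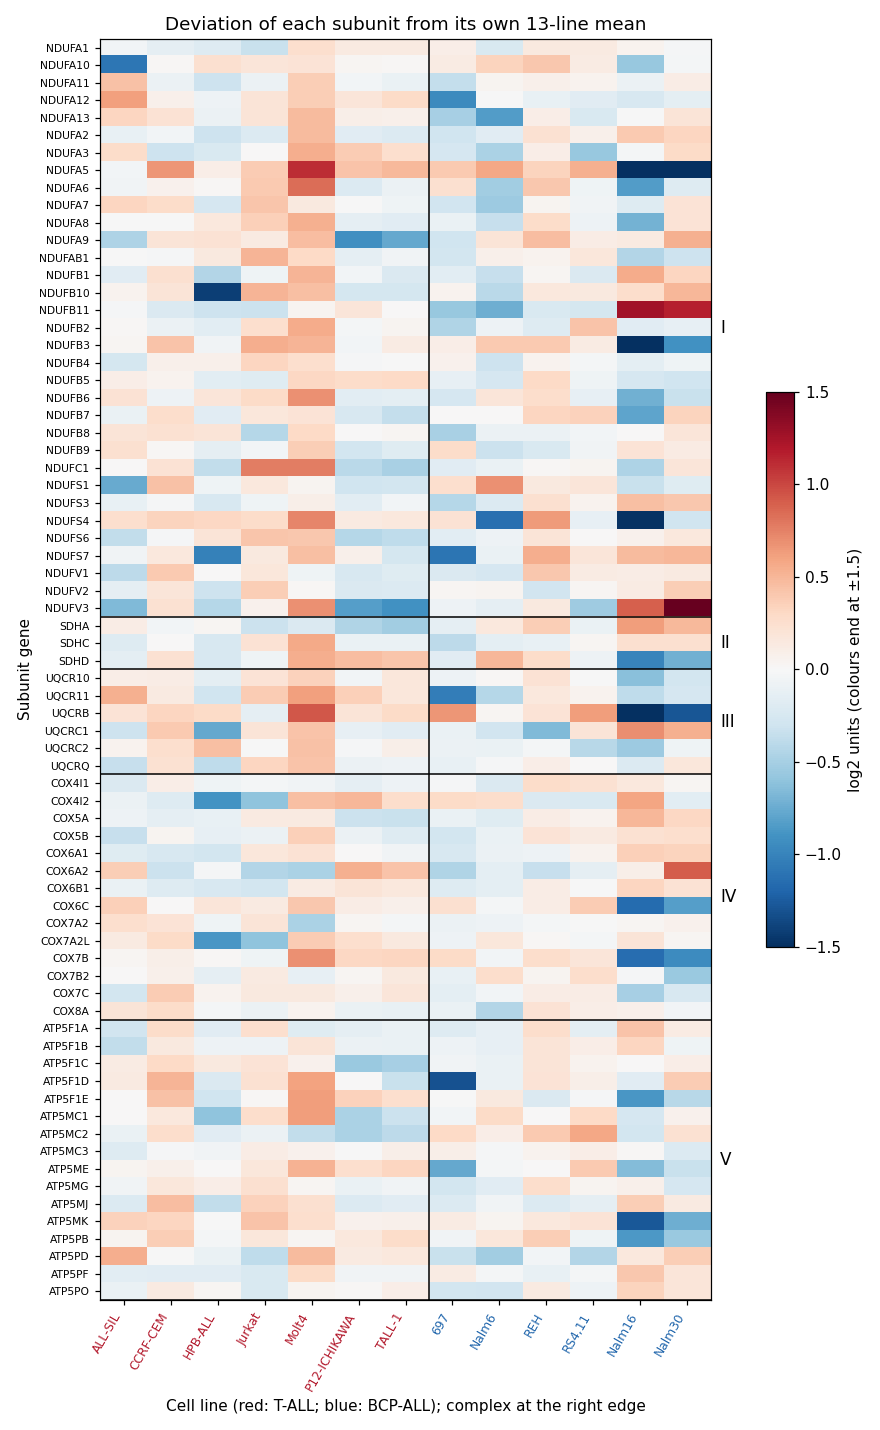
Deviation of each of the 72 tested subunits from its own mean over the 13 lines (log2 units, colours end at 1.5 either way), with T-ALL lines on the left (red names), BCP-ALL lines on the right (blue names) and complexes from I at the top to V at the bottom. Molt4 is above its mean for 64 subunits, and Nalm16 and Nalm30 hold the strongest colours in both directions.

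Many subunit genes are known to be driven by the same transcription factors, so the promoters were searched for their motifs. RefSeq promoters (GRCh38.p14, 250 bases before to 50 after the start) were found for 65 of the 76 genes, not for ATP5F1B, ATP5F1D, ATP5MC3, ATP5MF, COX4I2, COX6C, COX7A1, NDUFB5, NDUFB9, SDHC and UQCRB. On either strand, the core of the nuclear respiratory factor NRF1 motif, GCGCATGC, was in 13 of these 65 genes, against 3.05% of all 35116 promoters and 6.19% of the tested genes with a promoter. The ETS core CCGGAAG, bound by GABP, was in 19 (29.2%), against 10.3% and 21.6%. The YY1 core AAGATGGC was in 11 (16.9%), against 2.89% and 6.27%. At least 1 of the 3 was in 35 genes (53.8%), against 14.9% of all promoters and 30.4% of the tested genes. A gene can have several promoters in the table, and the gene counts take any of them. A match gives letters, not a bound site. The 6 windows below, 200 bases before to 30 after the start, belong to subunits with a large spread or a large lineage difference, and their capitals mark the motifs. NDUFA5 (chr7:123557789-123558018, minus strand) holds the NRF1 core at -158, NDUFS4 (chr5:53560439-53560668, plus strand) the YY1 core at 22, and SDHD (chr11:112086673-112086902, plus strand) 2 overlapping NRF1 cores from -110 and an ETS core at -77. UQCR11 (chr19:1605433-1605662, minus strand) holds ETS cores at -117 and -97, ATP5MK (chr10:103396446-103396675, minus strand) ETS cores at -163, -160 and -3, the first 2 overlapping, and ATP5MC2 (chr12:53676054-53676283, minus strand) an NRF1 core at -40. Positions give the first base of the match, counted from the start.
NDUFA5: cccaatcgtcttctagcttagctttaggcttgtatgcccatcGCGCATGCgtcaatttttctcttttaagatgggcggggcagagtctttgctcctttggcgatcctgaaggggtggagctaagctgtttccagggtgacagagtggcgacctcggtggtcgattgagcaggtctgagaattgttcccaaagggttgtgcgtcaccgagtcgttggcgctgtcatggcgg
NDUFS4: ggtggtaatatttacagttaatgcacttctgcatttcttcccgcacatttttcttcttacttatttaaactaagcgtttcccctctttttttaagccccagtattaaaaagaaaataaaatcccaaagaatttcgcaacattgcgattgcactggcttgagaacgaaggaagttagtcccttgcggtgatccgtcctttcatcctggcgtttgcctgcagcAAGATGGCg
SDHD: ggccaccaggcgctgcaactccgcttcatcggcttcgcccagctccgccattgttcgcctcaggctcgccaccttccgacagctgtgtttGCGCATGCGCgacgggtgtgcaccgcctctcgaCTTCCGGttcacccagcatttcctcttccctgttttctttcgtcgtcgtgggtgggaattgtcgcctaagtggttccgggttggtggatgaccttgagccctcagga
UQCR11: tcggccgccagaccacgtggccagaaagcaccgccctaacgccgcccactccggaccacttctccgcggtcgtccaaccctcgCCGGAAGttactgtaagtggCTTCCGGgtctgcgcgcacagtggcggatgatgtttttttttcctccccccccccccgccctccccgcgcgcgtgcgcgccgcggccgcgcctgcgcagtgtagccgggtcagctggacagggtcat
ATP5MK: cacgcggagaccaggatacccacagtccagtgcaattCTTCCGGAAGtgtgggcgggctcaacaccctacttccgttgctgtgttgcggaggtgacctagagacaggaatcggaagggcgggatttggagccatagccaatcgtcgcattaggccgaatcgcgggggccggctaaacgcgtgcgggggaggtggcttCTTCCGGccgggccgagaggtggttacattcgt
ATP5MC2: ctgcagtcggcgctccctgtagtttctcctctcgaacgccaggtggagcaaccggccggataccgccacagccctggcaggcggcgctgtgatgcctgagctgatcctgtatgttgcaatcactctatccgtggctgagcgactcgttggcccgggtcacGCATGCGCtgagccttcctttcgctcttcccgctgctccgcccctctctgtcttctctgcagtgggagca
Of the windows of subunits low in both Nalm16 and Nalm30, those of NDUFA5 and SDHD hold the NRF1 core and that of ATP5MK holds ETS cores alone. ATP5MC2, with an NRF1 core, was not among the subunits lowest in that pair. COX6A1, also among the genes with the NRF1 core, was high in both lines. Windows of the other subunits low in both lines are not printed, and a link of motif and level was not tested.

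Complex I held the subunit with the widest spread of all tested subunits. NDUFA5, a small accessory subunit at the base of the matrix arm, had a lowest, median and highest value of 9.34, 9.81 and 10.50 in T-ALL lines and of 6.22, 9.75 and 9.97 in BCP-ALL lines. Nalm16 (6.22) and Nalm30 (7.58) were far below the other 11 lines, which started at 9.34, while Molt4 was the highest. The difference of 0.97 ± 0.56 (SE) did not pass (limma adjusted p = 0.292), and without Nalm16 and Nalm30 it was -0.013. Its promoter window, with the NRF1 core, is printed above.

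NDUFB3, an accessory subunit of the membrane arm, ran the same way, at 9.97, 10.14 and 10.56 (lowest, median and highest) in T-ALL lines and 8.37, 10.13 and 10.41 in BCP-ALL lines, the low end again being Nalm16 (8.37) and Nalm30 (9.11). NDUFB11, another membrane arm subunit, ran the other way: it reached 11.72 in Nalm16 and 11.62 in Nalm30, while the other 11 lines lay between 9.72 and 10.64. NDUFV3, an accessory subunit of the NADH-oxidising module, was also highest in this pair, at 9.22 and 9.89. It was at 7.41, 7.91 and 9.02 in T-ALL lines, where Molt4 was the highest, and at 7.79, 8.36 and 9.89 in BCP-ALL lines (difference -0.57 ± 0.36, adjusted p = 0.327, and -0.11 without Nalm16 and Nalm30). NDUFB3 and NDUFB11 were chosen after their values were seen.

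NDUFS4, an accessory subunit of the matrix arm, was at 9.43, 9.57 and 10.03 (lowest, median and highest) in T-ALL lines and at 7.82, 9.09 and 9.94 in BCP-ALL lines. The T-ALL lines other than Molt4 lay between 9.43 and 9.63, while the BCP-ALL lines were spread wide, with Nalm16 (7.82) and Nalm6 (8.16) low and REH close to Molt4. The difference was 0.68 ± 0.30 (SE; unadjusted p = 0.0417, adjusted p = 0.181 by limma), and 0.41 without Nalm16 and Nalm30.

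NDUFA12, an accessory subunit of the matrix arm, came nearest to the threshold of all 72. It was at 10.91, 11.18 and 11.60 (lowest, median and highest) in T-ALL lines and 10.02, 10.82 and 10.98 in BCP-ALL lines, with a difference of 0.51 ± 0.17 (limma adjusted p = 0.0941). HPB-ALL, the lowest T-ALL line, was below Nalm6, the highest BCP-ALL line, so the groups overlapped, and 697 was the lowest of all. NDUFA13 (GRIM-19), an accessory subunit named for its second role in cell death signalling, was at 10.81 to 11.37 in T-ALL lines and 10.06 to 11.09 in BCP-ALL lines (difference 0.40 ± 0.18, adjusted p = 0.188). Both were named for an unadjusted p under 0.05.

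The catalytic core subunits of complex I did not pass at an unadjusted p of 0.05 either. NDUFV1, which binds NADH and FMN, lay between 9.97 and 10.78 over all 13 lines, and NDUFV2, its iron-sulfur partner, between 10.03 and 10.71. NDUFS1, the largest iron-sulfur subunit, was lowest in ALL-SIL (8.18) and highest in Nalm6 (9.63), and NDUFS3 ranged from 10.03 to 10.91. NDUFS7, an iron-sulfur subunit next to the quinone site, was low in HPB-ALL (8.34) and 697 (8.25) while the other 11 lines lay at 9.09 or above. Lone low lines were also found for NDUFB10 (8.96 in HPB-ALL, the others at 9.96 or above) and NDUFA10 (8.15 in ALL-SIL, the others at 8.67 or above). NDUFA1, with the smallest SD of complex I (0.17), stayed between 10.56 and 11.14.

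**Figure D5:**
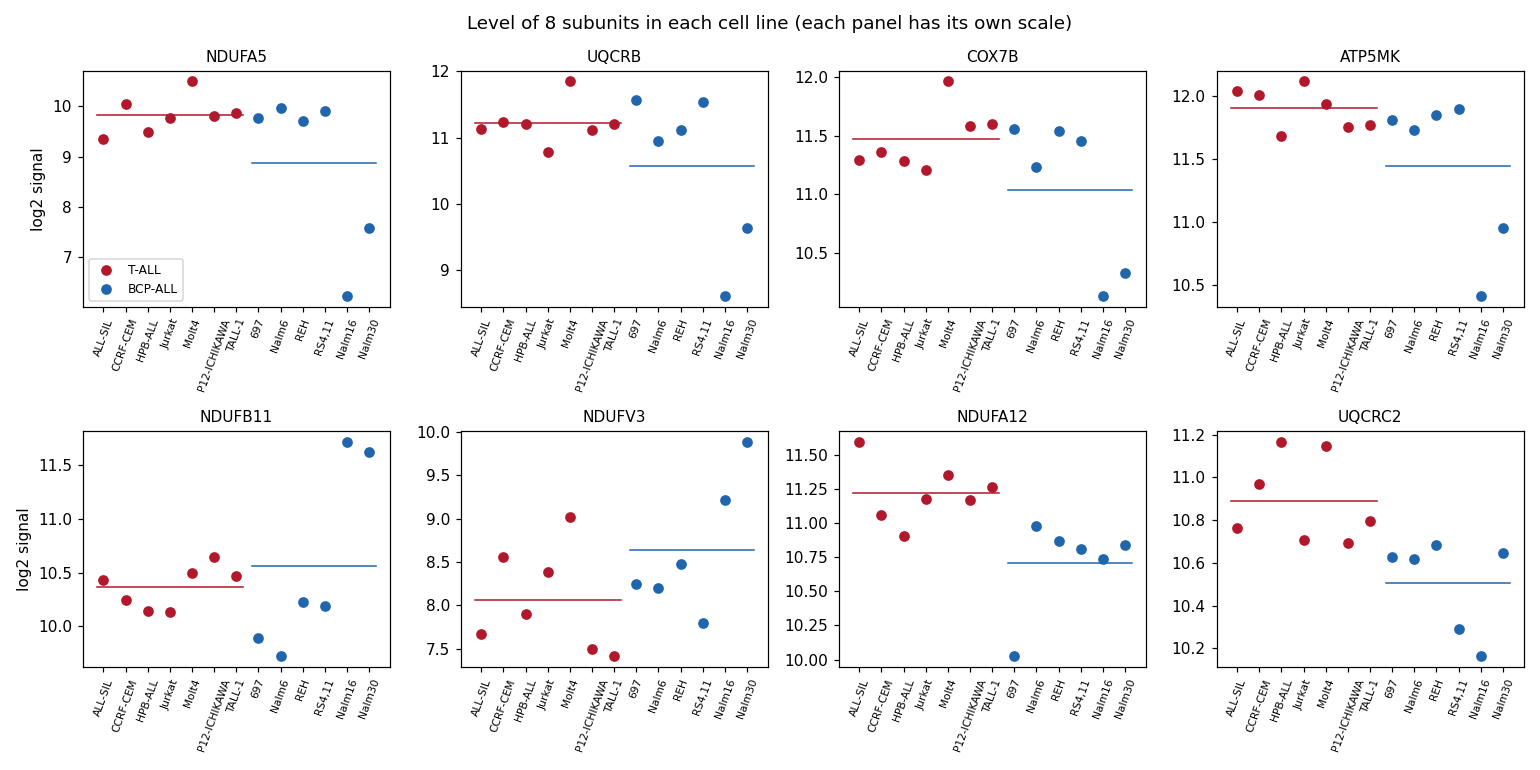
Level (log2 signal) of 8 subunits in each cell line; red points are T-ALL and blue points BCP-ALL lines, horizontal lines the group means, and each panel has its own scale. NDUFA5, UQCRB, COX7B and ATP5MK are lowest in Nalm16 and Nalm30, NDUFB11 and NDUFV3 highest there; for NDUFA12 the lineages overlap through HPB-ALL and Nalm6, and for UQCRC2 they do not overlap.

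Complex II was measured by SDHA, SDHC and SDHD. SDHA, the flavoprotein that oxidises succinate, was at 9.38, 9.68 and 10.02 in T-ALL lines and at 9.77, 10.17 and 10.53 in BCP-ALL lines. The groups overlapped through 697 and RS4,11, and the difference of -0.44 ± 0.17 did not pass (limma adjusted p = 0.137), and was -0.28 without Nalm16 and Nalm30. Its probe set is of a type (x_at) that can also bind similar transcripts, and SDHA has close pseudogene copies, so its level is uncertain. SDHD, a membrane anchor, had 10.03, 10.50 and 10.82 (lowest, median and highest) in T-ALL lines and 9.28, 10.15 and 10.77 in BCP-ALL lines, Nalm16 and Nalm30 (9.55) being the lowest (difference 0.37 ± 0.25, adjusted p = 0.358, and 0.042 without that pair). SDHC, the other anchor, lay between 9.75 and 10.55 in T-ALL lines and between 9.60 and 10.23 in BCP-ALL lines (difference 0.04 ± 0.17, adjusted p = 0.900, and 0.17 without that pair). The subunits of this complex did not move together over the lines, with a median pairwise r of -0.11 over 13 lines.

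In complex III, 5 of 6 subunits had a higher mean in T-ALL, and so had 6659 of the 12560 genes tested. UQCRQ counts among the 5 with a difference of only 0.024. UQCR11, a small accessory subunit, was at 10.47, 11.13 and 11.38 in T-ALL lines and 9.73, 10.46 and 10.93 in BCP-ALL lines (difference 0.58 ± 0.21, limma adjusted p = 0.106). HPB-ALL and CCRF-CEM among the T-ALL lines lay within the BCP-ALL range, and 697 was the lowest. UQCRC2, a core protein of the matrix side, was the only subunit whose lineages did not overlap: it was at 10.69, 10.80 and 11.17 in T-ALL lines and 10.16, 10.62 and 10.68 in BCP-ALL lines (difference 0.39 ± 0.15, adjusted p = 0.124). The nearest lines, P12-ICHIKAWA (10.69) and REH (10.68), almost touched. A second strong probe set gave a difference of 0.37, but with it the lineages overlapped. There Jurkat (10.039) and P12-ICHIKAWA (10.043) lay below 697 (10.046). The most variable of the 3 probe sets of UQCRC2, a weak one with a mean of 4.65, gave 0.0075.

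UQCRB, which binds near the quinone site, followed NDUFA5: Nalm16 was at 8.60 and Nalm30 at 9.63, while the other 11 lines lay between 10.78 and 11.85, the top being Molt4. Its difference of 0.65 ± 0.43 (adjusted p = 0.358) was -0.078 without Nalm16 and Nalm30. UQCRC1, the partner of UQCRC2, was highest in Nalm16 (11.37) and Nalm30 (11.21) and lowest in HPB-ALL (9.90). UQCRQ had the smallest SD of the complex (0.24), and its levels ran from 10.73 in HPB-ALL to 11.54 in Molt4.

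Complex IV was the most even. With the chosen probe sets, none of its 14 tested subunits reached an unadjusted p of 0.05, and its median SD over the 13 lines was 0.23 log2 units, against 0.33 for complex I. COX7B, COX6C and COX7C, small subunits around the catalytic core, had the largest differences, at 0.43 ± 0.26, 0.40 ± 0.24 and 0.22 ± 0.15 (limma adjusted p = 0.307, 0.314 and 0.366). Without Nalm16 and Nalm30 they were 0.026, 0.0075 and 0.089. COX7B was at 11.21, 11.36 and 11.96 in T-ALL lines and 10.13, 11.34 and 11.55 in BCP-ALL lines, where Nalm16 and Nalm30 (10.32) were the only lines under 11. COX6C was likewise at 10.53 and 10.85 in that pair and at 11.65 or above elsewhere. COX4I1, whose product regulates the enzyme by ATP binding, had the smallest SD of the complex (0.15) and stayed between 11.45 and 11.94. COX7A2 was at its lowest in Molt4 (11.10, the others at 11.49 or above), against the run of that line. COX5A, a subunit of the matrix side chosen after its values were seen, had a difference of -0.21 ± 0.15 (limma adjusted p = 0.381). Nalm16 (12.18) and Nalm30 (11.99) were its highest lines, and the difference without them is not given here. The other BCP-ALL lines lay between 11.50 and 11.79, within the T-ALL range of 11.35 to 11.82. The weaker, more variable probe set of COX5A gave -0.64 (limma adjusted p = 0.0564 when each gene took its most variable probe set).

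Of the isoform families of complex IV, the ubiquitous forms gave the signal. COX6A1, COX6B1, COX7A2 and COX8A were strong in every line, none under the 10.72 of COX8A in Nalm6, and COX7A2L, which takes part in supercomplexes, was low in HPB-ALL (9.32) and Jurkat (9.58). The muscle and heart form COX7A1, near the floor (within 1 log2 unit of 4) in all 13 lines, the testis forms COX6B2 (near the floor in 10) and COX8C (in 12), and ATP5MF of complex V (in 13) did not pass the expression filter. ATP5MF is not a tissue form and had only 1 probe set with a single symbol, so its low value does not show that the gene is silent. COX8C stood out in REH, at 6.33, against at most 4.35 elsewhere. COX6A2, the muscle form, passed the filter although near the floor in 9 lines, with its highest value of 5.80 in Nalm30. COX7B2 ran from 4.83 to 5.65, and COX4I2, a form known from lung, from 5.78 in HPB-ALL to 7.27 in Nalm16.

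In complex V, the subunits of the catalytic head were even. ATP5F1A and ATP5F1B, the alpha and beta subunits that hold the catalytic sites, ranged from 11.68 to 12.40 and from 11.36 to 12.05, both lowest in ALL-SIL and highest in Nalm16. ATP5F1D, the delta subunit of the central stalk, was 8.26 in 697 and 9.24 or above elsewhere. ATP5F1E, the epsilon subunit, was at 11.42, 11.97 and 12.35 in T-ALL lines and 10.85, 11.60 and 11.87 in BCP-ALL lines (difference 0.43 ± 0.20, limma adjusted p = 0.196, and 0.22 without Nalm16 and Nalm30), with Nalm16 lowest and Molt4 highest.

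The 3 genes of the membrane ring, ATP5MC1, ATP5MC2 and ATP5MC3, encode the same mature c subunit. ATP5MC2 was at 10.59, 10.89 and 11.32 in T-ALL lines and at 10.79, 11.33 and 11.64 in BCP-ALL lines (difference -0.41 ± 0.17, adjusted p = 0.151). CCRF-CEM at the top of the T-ALL lines and Nalm16 at the bottom of the BCP-ALL lines made the groups overlap, and without Nalm16 and Nalm30 ATP5MC2 had the smallest adjusted p of all subunits, 0.0900. With the chosen probe sets, ATP5MC3 had the smallest SD of all 72 subunits (0.10, from 11.50 to 11.82). Another strong probe set of ATP5MC3, with a mean of 11.37, had an SD of 0.18 and an r of 0.43 with the chosen one. ATP5MC1 ranged from 9.63 in HPB-ALL to 10.86 in Molt4. Among the membrane subunits, ATP5ME was at 10.77, 10.93 and 11.28 in T-ALL lines and 9.99, 10.58 and 11.15 in BCP-ALL lines (difference 0.43 ± 0.19, adjusted p = 0.185), with 697, Nalm16 and Nalm30 low. ATP5MK, a subunit of dimer contacts, was 10.42 in Nalm16 and 10.96 in Nalm30 and 11.69 or above elsewhere (difference 0.46 ± 0.24, adjusted p = 0.243, and 0.080 without that pair).

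The spread of the subunits was smaller at higher levels, as it was over all genes. The subunits' median SD over the 13 lines was 0.32 log2 units, against 0.52 over all genes tested. Among genes with a mean of 11 to 13, the median SD was 0.23 for 29 subunits and 0.24 for all 286 genes, and with a mean of 10 to 11 it was 0.35 for 27 subunits and 0.40 for all 539 genes. With a mean of 8 to 10 it was 0.40 for 13 subunits and 0.50 for all 3204 genes. The median Pearson r between 2 subunits across the 13 lines was 0.16, 0.21 within a complex and 0.14 between complexes, against 0.017 for all pairs of genes tested. It was 0.24 within complex I, 0.33 within complex III, 0.11 within complex V and 0.00087 within complex IV. Without Nalm16 and Nalm30 the median was 0.26 over all pairs of subunits, with 0.013 for all genes. These are descriptions: the points share arrays and their scaling. The closest pair, NDUFA5 and NDUFB3 (r = 0.96), was at 0.60 without Nalm16 and Nalm30, and the most opposed, NDUFB3 and NDUFB11 (r = -0.87), at -0.24. NDUFA6 and NDUFA8 (0.89 and 0.92) and NDUFA12 and UQCR11 (0.89 and 0.89) kept their r without that pair.

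The expression of 22 proliferation genes stood beside the complexes in place of doubling times, which were not used here. None of the 22 differed between lineages after adjustment. The mean deviation of these genes was highest in CCRF-CEM (0.29) and lowest in Nalm16 (-0.50). Across the 13 lines it was set against complex III (Pearson's r = 0.71, Spearman's rho = 0.44), complex V (0.68 and 0.70), complex I (0.53 and 0.54), complex II (0.40 and 0.35) and complex IV (0.15 and 0.09). The median over all genes tested had r = 0.86 with the same list, higher than any complex. Without Nalm16 and CCRF-CEM, the lines farthest from the median, r was 0.32 for complex III, 0.57 for complex V, 0.39 for complex I, 0.54 for complex II and 0.14 for complex IV, and 0.61 for the all-gene median. Molt4 had a value of 0.10 for the proliferation genes, below CCRF-CEM, HPB-ALL and REH, while each of its 5 complexes had the highest mean deviation of all lines.

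Of all genes tested 3.96% were higher and 3.67% lower in T-ALL, and the lists of related genes are to be read against these shares. Of the assembly factors, 1 of 18 for complex I was higher in T-ALL: COA1, also known as MITRAC15, at 8.60, 9.14 and 9.43 in T-ALL lines and 7.07, 8.13 and 8.34 in BCP-ALL lines (difference 1.12 ± 0.21, limma adjusted p = 0.00565). None of 4 for complex II, 6 for complex III, 23 for complex IV and 6 for complex V passed in either direction. Of 15 genes for cytochrome c, cytochrome c1 and ubiquinone synthesis, COQ3, a methyltransferase of ubiquinone synthesis, was higher in T-ALL (7.84 to 8.70 in T-ALL lines, 6.54 to 7.76 in BCP-ALL lines, difference 1.39 ± 0.23, adjusted p = 0.00179). COQ2, which attaches the side chain in the same route, was lower (5.68 to 7.51 in T-ALL lines, 7.59 to 8.21 in BCP-ALL lines, difference -1.19 ± 0.31, adjusted p = 0.0304). None of 11 citric acid cycle genes, 14 transcriptional regulators of respiratory genes or 6 carriers and porins passed. Median differences of these lists ran from -0.08 (carriers and porins) to 0.46 (complex II assembly), beside 0.034 over all genes tested. Molt4 was high in several of them too, at mean deviations of 0.42 for complex I assembly, 0.61 for complex II assembly, 0.41 for complex IV assembly, 0.54 for complex V assembly and 0.38 for the citric acid cycle. In Nalm16 these lists were at -0.62, -1.21, -0.57, -0.81 and -0.55. Molt4 was at 0.18 for complex III assembly and 0.26 for cytochrome c, cytochrome c1 and ubiquinone synthesis. It was at 0.32 for carriers and porins and 0.07 for the regulators. Jurkat was the highest line for complex I assembly (0.44), cytochrome c, cytochrome c1 and ubiquinone synthesis (0.34), and carriers and porins (0.46). Nalm6 was the highest for complex III assembly (0.49) and the regulators (0.33).

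Of the 34 further probe sets of tested subunits with a mean above 6, 31 had a lineage difference of the same sign as the chosen one, and their median r with it was 0.88. Single ones were far lower, such as a probe set of ATP5MG with a mean of 8.42 (r = 0.042). The 3' minus 5' difference of the array's ACTB control, a sign of RNA length, was 0.15 to 0.57 in T-ALL lines and 0.09 to 0.57 in BCP-ALL lines. Nalm16 (0.40) and Nalm30 (0.54) lay within that range, and so did Molt4 (0.57), near its upper end. For the GAPDH control, Nalm16 was the highest of all lines (0.21), and the others reached at most 0.18. The part of RNA length in the values of Nalm16 was not tested.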

How the data were processed

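RNA of 13 untreated ALL cell lines, 1 array per line, was hybridized to Affymetrix HG-U133 Plus 2.0 arrays. The authors deposited log2 signals from Affymetrix Expression Console (iterPLIER+16); its version, and any scaling of arrays to each other, are not given in the sources used here. Different RNA extraction kits are named in the labels and in the methods. Of 42450 probe sets, 38125 had 1 symbol, 1742 several and 2583 none. They gave 18568 genes, of which 12560 were above their array's median in at least 3 lines. T-ALL minus BCP-ALL was fitted with limma 3.58.1 (lmFit, eBayes) in R 4.3.3, with Benjamini-Hochberg adjustment over all 12560 genes at 0.05. The fit was tested on simulated data. Array values carry no read depth, so the number of lines limits the precision. Other steps used Python 3.11.15, numpy 2.4.6, pandas 2.3.3, scipy 1.17.1 and matplotlib 3.10.9. Alternatives covered normalization between arrays, the filter, the probe set, the variance model and the lines used.

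The members and the gene lists were chosen with earlier results of these data known. Named are, per complex, the 3 tested members with the largest lineage difference, the 2 with the largest and the 1 with the smallest SD, the isoform families, the SDH genes, the members below the filter, and genes of other lists that passed. Other names, such as lone low lines, core subunits and members at an unadjusted p under 0.05, were chosen after their values were seen. Protein sequences were not used here.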

Additional observations from a re-analysis of the deposited data

Results flagged for a closer look

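Among the named subunits and the 5 complexes, 70 groups of values (7 T-ALL or 6 BCP-ALL lines each) were checked for a line far from the others, a check that flags about 1 group in 20 by chance. It picked out 3 values. ATP5F1D was 8.26 in 697, where the nearest BCP-ALL line was at 9.40. In Molt4, NDUFS4 was 10.03, the nearest T-ALL line being at 9.63, and UQCRB was 11.85, the nearest being at 11.24. The check cannot see a pair of lines, so the low values shared by Nalm16 and Nalm30 did not meet it.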

How the results depend on the processing

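The count of subunits that passed the adjusted threshold was 0 in each direction in every alternative fit, the leave-one-out range being 0 to 0, while the count at an unadjusted p under 0.05 ran from 3 to 10 and the smallest adjusted p from 0.0564 (COX5A, with the most variable probe set of each gene) to 0.204 (NDUFA12, with both close pairs of lines averaged). Over all genes, the calls ran from 263, with the filter in all 13 lines, to 1223, without REH. They were 610 with P12-ICHIKAWA and TALL-1 averaged, 472 with Nalm16 and Nalm30 averaged as well, 668 without Nalm16 and Nalm30, and 372 with the source laboratory as a random block. The source laboratory, and both fits that left out Nalm16 and Nalm30 with another normalization, and the difference of complexes without them were chosen after seeing the data. Differences changed sign for NDUFA5 (-0.013 without Nalm16 and Nalm30, -0.035 with quantile normalization as well), UQCRB (-0.078 without them, -0.064 with quantile normalization and -0.021 with arrays centred as well) and SDHC (-0.016 with quantile normalization, and -0.046 to 0.097 leaving out 1 line). The mean deviation of Nalm16 moved with the scaling: with arrays centred it was 0.14 for complex II, 0.16 for complex IV and 0.038 for complex V, and with quantile normalization -0.0064 for complex I, 0.19 for complex II and 0.097 for complex IV. For complex II in Molt4 it was 0.13 with the mean of all probe sets. The causes were not tested. No paired analysis was possible because each line belongs to 1 lineage and replicate numbers only name lines.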
